A study of Mus musculus with 36 samples.

Results

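A set of 39 mouse genes of fatty acid oxidation and of the PPARα programme was followed in liver: the receptor PPARα itself, the carnitine carriers, the mitochondrial and peroxisomal β-oxidation enzymes, the acyl-CoA thioesterases, a ketone body enzyme and a few further known targets. A gene was a member by its symbol alone, and its probes were tested when the signal exceeded background (detection p below 0.05) on at least 6 of the 36 arrays. Of the 39 genes, 38 had a probe and 36 had a tested probe, through 71 of 17907 tested probes on an array of 45281. Acsl1, a long-chain acyl-CoA synthetase, had no probe named for it here. Cpt1a, the outer-membrane carnitine palmitoyltransferase, had 2 probes detected on 0 arrays, and Vnn1, pantetheinase, had 1 probe detected on 1 array, so neither has a measured level.

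Liver RNA of 36 male mice, 20 weeks old, was measured on MouseWG-6 v2.0 beadchips of Illumina, with 1 mouse per array and 6 mice per diet. The strain is C57BL/6J by the sample labels and C57BL/6JBomTac by the series design, and the labels name no transgene or deletion. For 13 weeks the mice ate a low-fat diet (10% of energy as fat), a high-fat diet (45%), or that high-fat diet with freeze-dried lingonberry, blackcurrant, bilberry or açai at 20% of its weight. The 5 diets with 45% fat therefore share their fat content, and the berry comparisons ask what a berry adds to it. Each of the 6 chips held 1 mouse of every diet, at a fixed position per diet, so position and diet cannot be told apart.

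Fatty acids enter the mitochondrial matrix as carnitine esters and are shortened there by acyl-CoA dehydrogenases, hydratases, hydroxyacyl-CoA dehydrogenases and thiolases. Very long and branched chains are first shortened in peroxisomes by a separate set of enzymes, thioesterases release free acids from acyl-CoA, and in fasting the liver turns the resulting acetyl-CoA into ketone bodies. PPARα is a nuclear receptor that is activated by fatty acids and, together with RXR, binds direct repeats of AGGTCA set apart by 1 letter, which is how many of these genes are switched on in rodent liver.

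The array's median raw intensity lay between 81.24 and 102.9, and 14240 to 15670 probes were detected per array. Signals are given as log2 values after background correction and quantile normalization, a difference is a log2 difference ± its standard error, and "rose" or "fell" means an adjusted p below 0.05 over all tested probes. Hepatocyte markers were high in every mouse, with 10 of 10 tested and a mean log2 signal per mouse from 10.88 to 11.59. Its median was 11.35 on the low-fat diet and between 11.11 and 11.24 on the others, and the part of this in the differences below was not tested. Adipocyte markers were near background (2 of 6 tested). Pancreatic acinar markers (12 of 14 tested) had a median of 5.513 to 5.665 per diet, but single mice reached 9.713 (lingonberry), 9.263 (açai), 8.402 (bilberry), 7.744 (blackcurrant) and 7.571 (low-fat), against a highest value of 5.697 on the high-fat diet. With the acinar mean of each mouse as a covariate, the high-fat against low-fat comparison still gave 12 member calls. The calls against low-fat went from 17 to 15 on lingonberry, without Crot and Etfdh, and from 10 to 8 on bilberry, without Acot1 and Acot4, and stayed at 10 on blackcurrant and 22 on açai. In whole liver, fewer cells of a type and less RNA per cell cannot be told apart.

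Since many members moved together, the promoters of 34 member genes (38 start sites, RefSeq, GRCm38.p6) were searched on both strands for AGGTCANAGGTCA, from 250 bases before the start to 50 after it. No member promoter held the element exactly, against 0.0396% of 32851 promoters. With up to 2 of the 12 compared letters allowed to differ, 4 of 38 member promoters (10.5%) held it, against 3.86% of all. With up to 3 letters allowed to differ, 12 of 38 (31.6%) held it, against 24.6% of all. The 4 with up to 2 differing letters were Acot12, with 1, and Acot4, Slc25a20 and Etfa with 2. The 4 are printed here with that of Aldh3a2, the member with the largest F statistic among diets, whose best match differed by 3 letters. Each runs 5′ to 3′ on the gene's strand from 250 bases before the start to 30 into the gene, and capitals mark the match. They lie at chr13:91741271-91741550 (+) for Acot12, chr12:84038129-84038408 (+) for Acot4, chr9:108661886-108662165 (+) for Slc25a20, chr9:55512214-55512493 (−) for Etfa and chr11:61267157-61267436 (−) for Aldh3a2.
Acot12: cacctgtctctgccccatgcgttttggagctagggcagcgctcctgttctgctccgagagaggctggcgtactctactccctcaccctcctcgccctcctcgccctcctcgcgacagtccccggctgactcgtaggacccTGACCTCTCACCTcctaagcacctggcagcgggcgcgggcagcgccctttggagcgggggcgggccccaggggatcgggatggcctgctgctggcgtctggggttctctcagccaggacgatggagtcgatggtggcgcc
Acot4: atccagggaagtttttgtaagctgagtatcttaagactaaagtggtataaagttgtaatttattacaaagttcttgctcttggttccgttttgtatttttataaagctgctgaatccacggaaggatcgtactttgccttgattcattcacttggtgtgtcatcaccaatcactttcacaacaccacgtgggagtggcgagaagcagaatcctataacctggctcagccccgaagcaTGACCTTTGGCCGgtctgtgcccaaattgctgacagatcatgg
Slc25a20: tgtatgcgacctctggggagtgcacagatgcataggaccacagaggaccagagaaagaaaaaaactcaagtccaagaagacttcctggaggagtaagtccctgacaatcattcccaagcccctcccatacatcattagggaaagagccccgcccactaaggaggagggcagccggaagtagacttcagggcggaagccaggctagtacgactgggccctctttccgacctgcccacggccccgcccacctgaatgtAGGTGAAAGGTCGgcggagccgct
Etfa: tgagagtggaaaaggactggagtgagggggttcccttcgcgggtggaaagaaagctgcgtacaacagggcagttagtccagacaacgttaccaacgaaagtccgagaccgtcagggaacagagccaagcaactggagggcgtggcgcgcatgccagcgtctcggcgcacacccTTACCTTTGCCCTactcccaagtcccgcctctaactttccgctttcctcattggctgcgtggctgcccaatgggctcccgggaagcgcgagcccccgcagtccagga
Aldh3a2: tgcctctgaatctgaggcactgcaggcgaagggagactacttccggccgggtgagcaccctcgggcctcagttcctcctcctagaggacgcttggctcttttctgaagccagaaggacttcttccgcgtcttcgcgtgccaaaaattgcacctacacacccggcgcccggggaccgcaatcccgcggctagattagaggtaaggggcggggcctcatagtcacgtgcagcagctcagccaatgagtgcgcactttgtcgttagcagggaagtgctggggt
A match is a description of letters and not a binding site. Among these 5, Slc25a20 and Aldh3a2 rose on every 45% fat diet and Acot4 on 4 of the 5, Acot12 rose on the blackcurrant diet, and Etfa did not pass the test on any. Under alternative settings, 16 in all, the Acot4 call was lost under 9 on high-fat, 6 on lingonberry and 11 on bilberry.

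Members differed among diets mainly through low levels in the low-fat mice. A moderated F test over the 6 diets called 17 of 36 members, against 8.03% of all tested probes. In 16 of these 17 the lowest diet mean was that of the low-fat mice, and the exception was Crot. Over all 36 tested members, 29 had their lowest mean on the low-fat diet. The share of all probes with their lowest mean on low-fat is not given, so these counts have no array-wide comparison. On the high-fat diet 12 members rose against low-fat and 0 fell, while 1.97% of all probes rose and 1.35% fell. The median difference of all 36 tested members was 0.337, against -0.004 over all probes, and 32 of 36 were positive, against 49.2% of all probes. With the chip as a block 16 members rose (3.32% of all probes rose), adding Acadl, Acads, Acaa2 and Acot8.

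**Figure D1:**
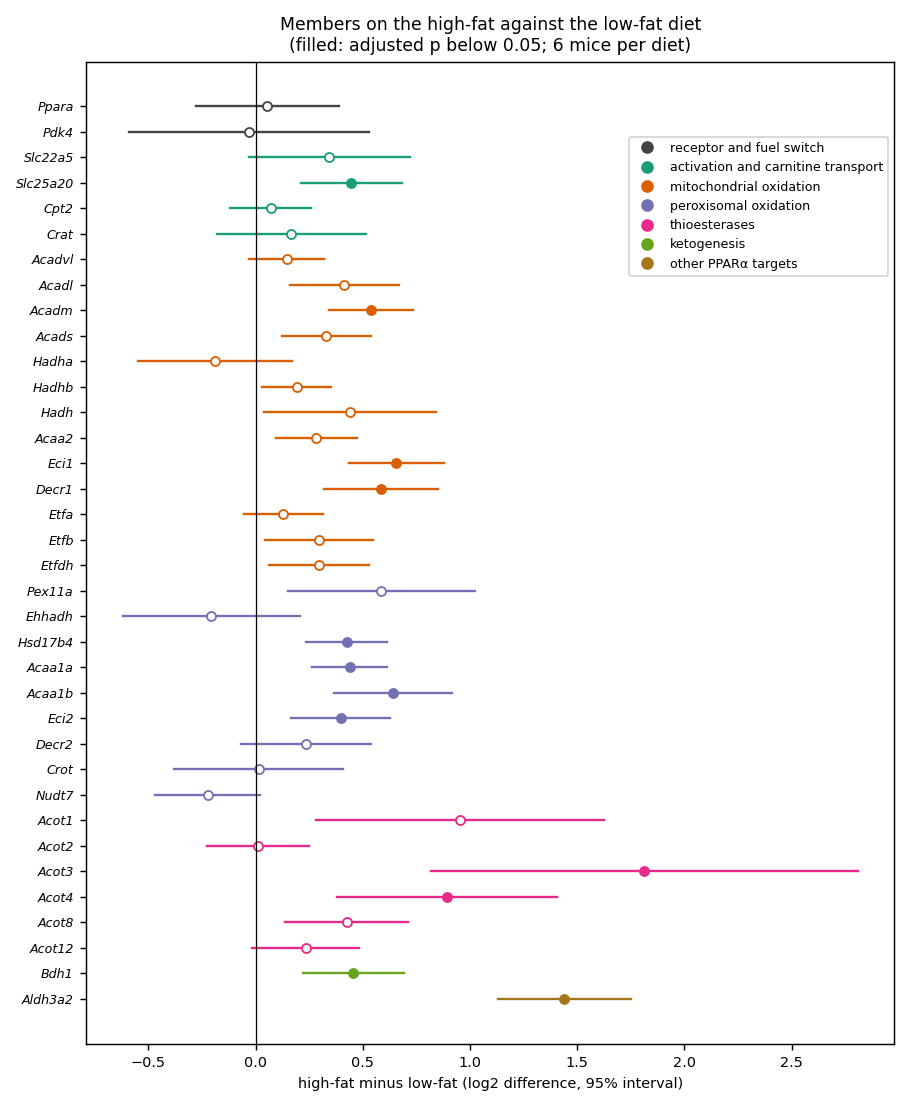
Log2 difference between the high-fat and the low-fat diet (x axis) for each of the 36 tested members (y axis, ordered and coloured by step), with 95% intervals. Filled points passed the test: 12 members, all above 0, led by Acot3 at 1.81 and Aldh3a2 at 1.44.

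The first steps bring fatty acids to the matrix. Slc25a20, the carnitine-acylcarnitine translocase of the inner mitochondrial membrane, ran from 10.27 through a median of 10.76 to 11.14 in low-fat mice and from 10.95 through 11.19 to 11.51 in high-fat mice. The groups overlapped between 10.95 and 11.14, and the high-fat mouse exceeded the low-fat mouse on all 6 chips. The difference was 0.447 ± 0.117 (adjusted p = 0.0245), and the 4 berry diets had means of 11.2 to 11.3. A dimmer probe of the gene also rose, by 0.48.

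Slc22a5, the plasma membrane carnitine transporter OCTN2, was 0.344 ± 0.186 higher on high-fat without passing the test (adjusted p = 0.382) and rose on the açai diet against low-fat (0.638, adjusted p = 0.0301), a call kept under 9 of 16 settings. A dimmer probe of it rose on lingonberry (0.694, adjusted p = 0.0135) and blackcurrant (0.639, adjusted p = 0.0345), where the brightest did not pass. The dimmest Slc22a5 probe gave 0.032 on high-fat (adjusted p = 0.942) and -0.029 on lingonberry (adjusted p = 0.959) against low-fat. Crat, carnitine acetyltransferase, gave 0.167 ± 0.171 (adjusted p = 0.703). Its low-fat mice spread from 4.677 through 5.619 to 6.391, and the açai mice lay from 6.115 through 6.264 to 6.533. Crat rose on açai against low-fat by 0.703 ± 0.171 (adjusted p = 0.00735). Cpt2, the inner-membrane carnitine palmitoyltransferase, differed by 0.07 ± 0.092 and was called on no diet. In the mean of the 5 diets with 45% fat against low-fat, the dimmer of its 2 other probes rose by 0.289 (adjusted p = 0.0229), and the remaining one gave 0.272 (adjusted p = 0.146).

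Among the 13 mitochondrial oxidation genes, 3 rose on high-fat and 12 were positive. Acadm, the medium-chain acyl-CoA dehydrogenase, was tight in low-fat mice, from 11.95 through 12.07 to 12.16, and lay from 12.4 through 12.59 to 13 in high-fat mice. The groups did not overlap, and the difference was 0.538 ± 0.096 (1.45-fold, adjusted p = 0.000546). All 24 berry-fed mice were above the highest low-fat mouse as well, since the lowest of them was at 12.26.

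Eci1, the mitochondrial enoyl-CoA isomerase needed for unsaturated fatty acids, ran from 10.38 through 10.65 to 11.09 on low-fat and from 10.96 through 11.3 to 11.69 on high-fat. A single low-fat mouse reached into the high-fat range, and the difference was 0.656 ± 0.109 (1.58-fold, adjusted p = 0.000198). Decr1, the 2,4-dienoyl-CoA reductase that acts on polyunsaturated chains, rose by 0.583 ± 0.131 (adjusted p = 0.00693). Its low-fat mice were wide, from 6.792 through 7.249 to 7.868, against 7.591 through 7.881 to 8.056 on high-fat.

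The long- and short-chain dehydrogenases gave smaller values. Acadl ran from 8.199 through 8.416 to 8.771 on low-fat and from 8.651 through 8.864 to 9.213 on high-fat, a difference of 0.414 ± 0.125 that missed the threshold (adjusted p = 0.0576) and passed with the chip as a block (adjusted p = 0.00327). Acads ran from 9.191 through 9.416 to 9.68 and from 9.533 through 9.793 to 9.952, a difference of 0.33 ± 0.102 (adjusted p = 0.0649, and 0.0203 with the block). Both were higher on high-fat on all 6 chips. Acaa2, the mitochondrial 3-ketoacyl-CoA thiolase, did not overlap between the diets, with a high-fat minimum of 12.25 above the low-fat maximum of 12.23. Its difference of 0.283 ± 0.094 missed the threshold (adjusted p = 0.0919, and 0.0204 with the block), while a slightly dimmer probe rose by 0.336 (adjusted p = 0.023). The remaining Acaa2 probes gave 0.292 (adjusted p = 0.0502) and 0.291 (adjusted p = 0.199) and did not pass.

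The very-long-chain dehydrogenase Acadvl (0.144 ± 0.086) and Hadhb, the β subunit of the trifunctional protein (0.191 ± 0.08), were not called on high-fat and rose on the lingonberry diet against low-fat, by 0.334 and 0.326, calls kept under 9 and 11 of 16 settings. Hadhb also rose on açai against low-fat (0.254, adjusted p = 0.0472), a call lost under 9 of 16 settings. A dimmer Acadvl probe gave 0.285 on lingonberry against low-fat and did not pass (adjusted p = 0.287). Hadh, the short-chain hydroxyacyl-CoA dehydrogenase, was 0.44 ± 0.198 higher (adjusted p = 0.261). The electron transfer flavoprotein subunits Etfa (0.129) and Etfb (0.295) and the oxidoreductase Etfdh (0.296) did not pass on high-fat, and Etfdh rose on lingonberry and açai against low-fat, by 0.397 and 0.464. The lingonberry call of Etfdh was lost under 9 of 16 settings, with an adjusted p of up to 0.298. Dimmer Etfdh probes gave 0.214 and 0.125 on lingonberry against low-fat and did not pass (adjusted p = 0.78 and 0.619). Hadha, the α subunit of the trifunctional protein, was read by a dim probe with diet means of 4.834 to 5.192, and gave -0.19 ± 0.177.

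Peroxisomal enzymes rose in 4 of 9 cases on high-fat. Acaa1b, a peroxisomal thiolase, ran from 12.88 through 13.28 to 13.7 on low-fat and from 13.36 through 14.01 to 14.15 on high-fat, and its 0.641 ± 0.135 was a 1.56-fold rise (adjusted p = 0.00378). Its close relative Acaa1a ran from 11.61 through 12.1 to 12.2 and from 12.24 through 12.52 to 12.6, with no overlap, and rose by 0.438 ± 0.087 (adjusted p = 0.00199). The pair is similar enough in sequence that cross-hybridization between their probes is possible, which was not tested.

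Hsd17b4, the peroxisomal bifunctional enzyme for branched and very long chains, did not overlap between the diets either. It ran from 11.68 through 11.8 to 12.02 on low-fat and from 12.08 through 12.26 to 12.4 on high-fat, and rose by 0.425 ± 0.093 (adjusted p = 0.0054). Eci2, the peroxisomal enoyl-CoA isomerase, ran from 10.34 through 10.65 to 10.89 and from 10.77 through 11.01 to 11.3, and rose by 0.396 ± 0.114 (adjusted p = 0.0436). Its high-fat excess ranged from 0.002 to 0.844 over the chips.

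The other peroxisomal members did not pass on high-fat through their brightest probe. Pex11a, a peroxisome proliferation factor, was 0.585 ± 0.215 higher (adjusted p = 0.14), with chip differences from -0.445 to 1.583. A pair of its dimmer probes rose, by 0.877 and 0.76, and the first of these also rose on lingonberry (0.769), blackcurrant (0.95) and bilberry (0.834) against low-fat, where the brightest did not pass. A further Pex11a probe did not pass on high-fat (0.82, adjusted p = 0.0755) or on lingonberry (0.668, adjusted p = 0.182) against low-fat. On the açai diet the brightest probe rose against low-fat by 0.938 (adjusted p = 0.00441). Decr2, the peroxisomal dienoyl-CoA reductase, gave 0.233 ± 0.149 (adjusted p = 0.488), and its other probe rose by 0.491 (adjusted p = 0.0436). Against low-fat, its brightest probe rose on açai by 0.606 (adjusted p = 0.00858), a call lost under 1 setting. On bilberry that probe gave 0.481 and did not pass (adjusted p = 0.0985). Ehhadh, the classical peroxisomal bifunctional enzyme, gave -0.206 ± 0.203 and Crot, carnitine octanoyltransferase, 0.015 ± 0.195. Nudt7, a peroxisomal hydrolase that degrades coenzyme A and acyl-CoA, had the opposite sign. Its brightest probe gave -0.224 ± 0.121 (adjusted p = 0.381), lower on all 6 chips, and 2 dimmer probes fell, by 0.556 (adjusted p = 0.0137) and 0.851 (adjusted p = 0.044).

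**Figure D2:**
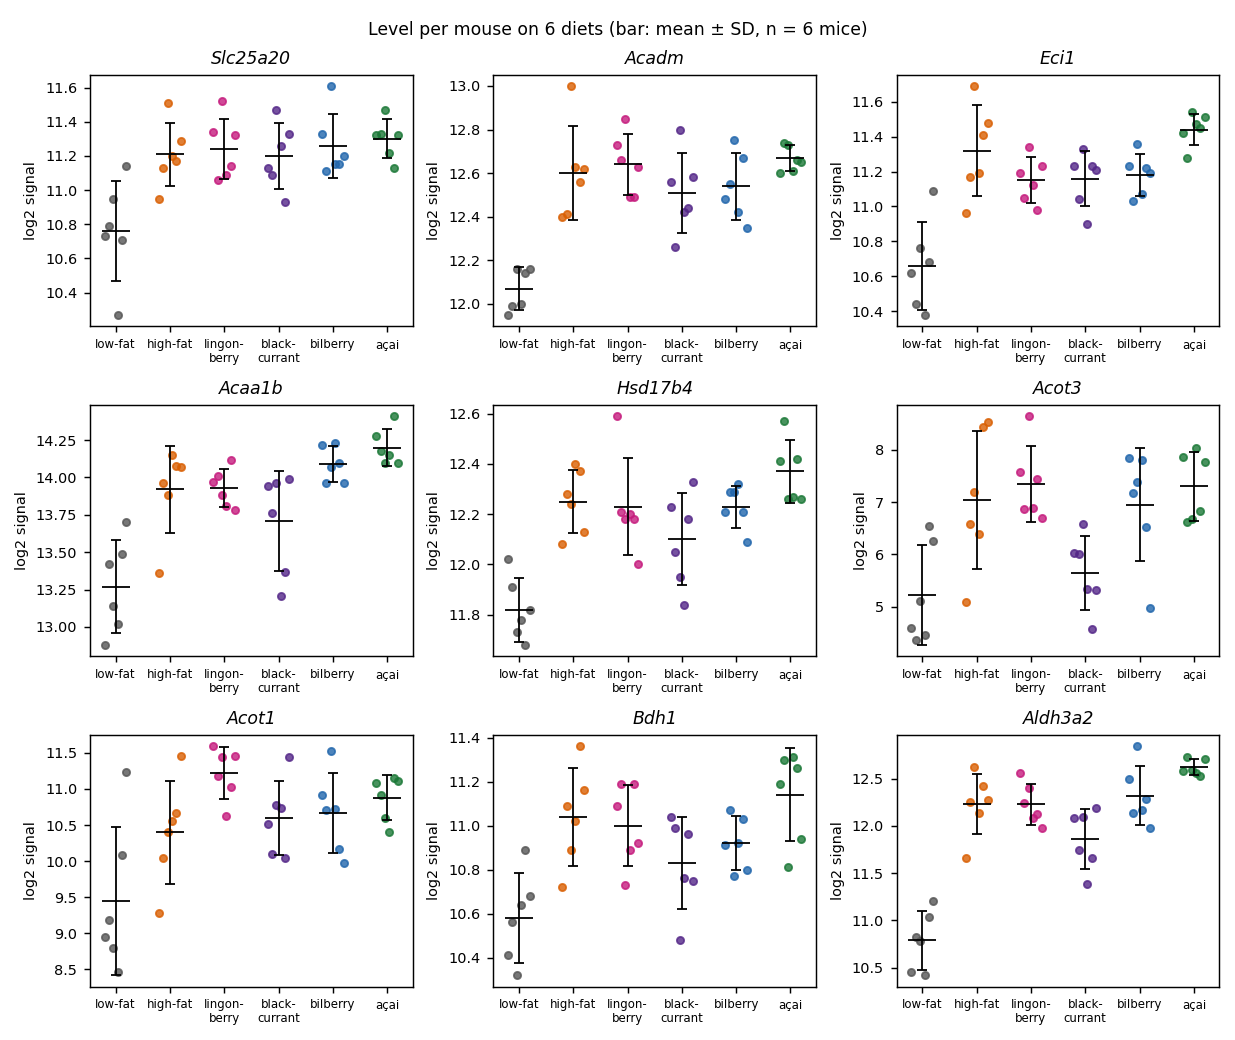
Log2 signal (y axis, a separate scale per gene) of each of 36 mice on 6 diets (x axis) for 9 members; points are mice and bars the mean ± SD, n = 6. In Acadm and Aldh3a2 every mouse on 45% fat lies above every low-fat mouse, whereas the Acot3 mice of each diet spread over more than 1 log2 unit.

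The thioesterases held both the largest and the least even differences. Acot3, a peroxisomal long-chain thioesterase of the mouse, ran from 4.373 through 4.854 to 6.541 on low-fat, where 3 of 6 mice had a signal above background, and from 5.085 through 6.886 to 8.529 on high-fat. The difference of 1.813 ± 0.491 passed narrowly (adjusted p = 0.0302) although the groups overlapped, and the low-fat mice at background have only an upper bound. Acot4, a peroxisomal thioesterase of dicarboxylic acids, ran from 6.886 through 7.075 to 8.209 and from 7.245 through 8.342 to 8.987, and rose by 0.893 ± 0.253 (adjusted p = 0.04).

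Acot1, the cytosolic long-chain thioesterase, ran from 8.463 through 9.065 to 11.23 on low-fat and from 9.282 through 10.48 to 11.45 on high-fat. Its 0.954 ± 0.332 did not pass (adjusted p = 0.111), and the low-fat mice had an SD of 1.026. Acot1 rose on the lingonberry, bilberry and açai diets against low-fat, by 1.772, 1.219 and 1.431. The bilberry call (adjusted p = 0.0475) was lost under 12 of 16 settings, with an adjusted p of up to 0.271. Acot8, a peroxisomal thioesterase, gave 0.425 ± 0.141 (adjusted p = 0.0921, and 0.00628 with the chip block). Acot12, the cytosolic acetyl-CoA thioesterase, gave 0.234 ± 0.123 and rose on the blackcurrant diet against low-fat (0.461, adjusted p = 0.0352), a call kept under 10 of 16 settings. A dimmer Acot12 probe had the opposite sign, with -0.133 on high-fat (adjusted p = 0.751) and -0.272 on lingonberry (adjusted p = 0.458) against low-fat. On blackcurrant against high-fat that probe gave -0.151 (adjusted p = 0.867), where the brightest gave 0.227. Acot2, a mitochondrial thioesterase, was read near background, with diet means from 4.592 to 4.87, and was called on no diet.

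Within a diet, the pooled SD was 0.936 for Acot3, 0.627 for Acot1 and 0.474 for Acot4, at the 99.7th, 99th and 97.7th percentile of all tested probes. The median SD was 0.2149 over the members and 0.2312 over all probes. Mice with high Acot3 also had high Acot4: over 36 mice, deviations from the diet mean had a Pearson r of 0.92 and a Spearman rho of 0.879, with a permutation p of 1e-05, the smallest that 1e+05 resamples can give (adjusted p = 3e-05). Acot1 followed Acot4 with r = 0.776 (rho 0.754, permutation p = 2e-05, adjusted p = 3e-05) and Acot3 with r = 0.628 (rho 0.62, permutation p = 0.00028, adjusted p = 0.00028). These 3 pairs were chosen after their values were seen. The 2 mice with an Acot3 level (first pair) or Acot1 level (other pairs) farthest from the median of all 36 mice were left out. Without them r was 0.916, 0.773 and 0.626. They were picked by level, so the mice most extreme in their deviation were not tested in this way. With chip means removed, over all 36 mice, r was 0.938, 0.8 and 0.694. The genes are close relatives that neighbour each other on a chromosome, and how far their probes share signal was not tested.

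Bdh1, the mitochondrial enzyme that turns acetoacetate into 3-hydroxybutyrate, was the only ketone body gene among the members. It ran from 10.32 through 10.6 to 10.89 on low-fat and from 10.72 through 11.06 to 11.36 on high-fat. It rose by 0.456 ± 0.115 (adjusted p = 0.0189), with an excess of 0.305 to 0.565 on each chip.

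Aldh3a2, the microsomal fatty aldehyde dehydrogenase, differed most clearly. Low-fat mice ran from 10.42 through 10.8 to 11.2 and high-fat mice from 11.66 through 12.26 to 12.62. No high-fat mouse came within the low-fat range. The 1.44 ± 0.153 (2.71-fold) had an adjusted p of 8.99e-08, and other probes of the gene rose by 1.637 and 0.428.

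No difference between diets was called for the receptor. Ppara ran from 4.873 through 5.472 to 5.84 on low-fat and from 5.204 through 5.518 to 5.821 on high-fat, and the groups lay over each other. The difference was 0.055 ± 0.164, with a 95% interval from -0.276 to 0.387 (adjusted p = 0.919), and the means of the 6 diets spanned 5.194 (blackcurrant) to 5.614 (açai), with an adjusted p of 0.454 in the F test. Pdk4, the pyruvate dehydrogenase kinase that shifts fuel use from glucose to fat, gave -0.031 ± 0.277, and its mice ran from 4.958 through 5.32 to 6.942 on low-fat and from 4.992 through 5.46 to 6.222 on high-fat.

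Within diets, the mice with more Ppara signal tended to have more of some oxidation enzymes. Deviations from the diet mean over 36 mice gave a positive r for 27 of 35 members, with a median of 0.218 and a range from -0.41 to 0.627. A pair of thiolases passed adjustment over the 35 relations: Acaa2 with r = 0.627 (permutation p = 0.00024, adjusted p = 0.0084; rho 0.561, permutation p = 0.00132) and Acaa1a with r = 0.6 (permutation p = 0.00057, adjusted p = 0.00997; rho 0.547, permutation p = 0.00124). Without the 2 mice whose Ppara level lay farthest from the median of all 36 mice, r was 0.612 and 0.613. They were picked by level and not by deviation from the diet mean. With chip means removed besides diet means, over all 36 mice, r was 0.353 for Acaa2 (permutation p = 0.0353, adjusted p = 0.154) and 0.458 for Acaa1a (permutation p = 0.00811, adjusted p = 0.136). Then 0 of 35 relations passed adjustment and 8 had an unadjusted permutation p below 0.05, while 32 of 35 were positive with a median r of 0.262.

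**Figure D3:**
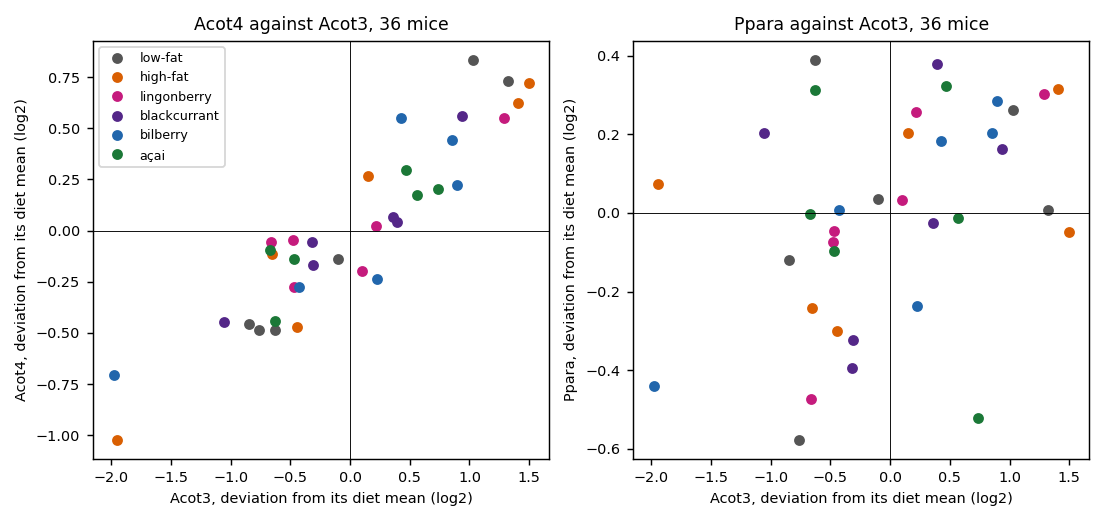
Deviation of each mouse from its diet mean (log2) for Acot4 against Acot3 (left) and for Ppara against Acot3 (right), 36 mice coloured by diet. The left panel follows a line (r = 0.92), and the right one is loose (r = 0.382, adjusted p = 0.133).

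The berry diets, also with 45% fat, were compared with the same 6 low-fat mice. The comparisons share these controls and are given side by side. Lingonberry-fed mice had 17 members above low-fat (2.03% of all probes rose), blackcurrant-fed mice 10 (1.1%), bilberry-fed mice 10 (1.11%) and açai-fed mice 22 (3.79%). No member fell through its brightest probe in any of the 4, where 1.25%, 1.21%, 0.503% and 2.67% of all probes fell, but 2 other Nudt7 probes fell on açai, by 0.528 (adjusted p = 0.0118) and 0.966 (adjusted p = 0.0107). Under all 16 alternative settings tried, 7 of the 17 lingonberry calls, 2 of the 10 blackcurrant calls, 5 of the 10 bilberry calls and 13 of the 22 açai calls were kept. Median differences were 0.402, 0.332, 0.33 and 0.501, and with the chip as a block the counts were 21 (2.95% of all probes), 14 (2%), 15 (1.87%) and 25 (5.34%). Slc25a20, Acadm, Eci1, Acaa1a and Aldh3a2 were above low-fat on all 5 diets, 5 members on 4 of the 5, and 11 on none. The share of all probes called on that many diets is not given, so these counts have no array-wide comparison. The Slc25a20 call was lost under 4 of 16 settings on high-fat, 3 on lingonberry, 6 on blackcurrant and 5 on bilberry. Calls of Acadm, Eci1, Acaa1a and Aldh3a2 against low-fat were lost under at most 2.

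**Figure D4:**
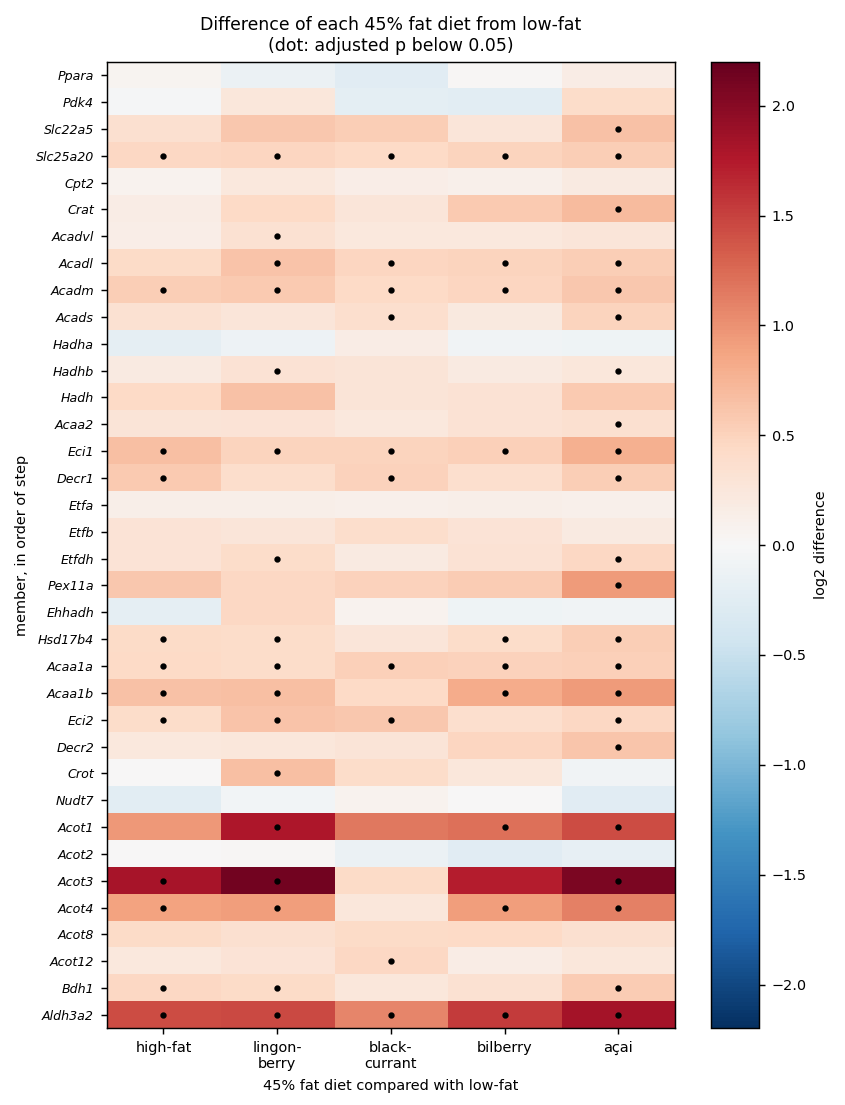
Log2 difference from the low-fat diet (colour) of each tested member (rows, in order of step) on each of the 5 diets with 45% fat (columns); dots mark an adjusted p below 0.05. Dots run across the whole row for 5 members, and the açai column holds the most, 22.

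Aldh3a2 levels on the berry diets are given as a description of a single gene. None of these diets was called against high-fat for it (adjusted p = 0.995 on lingonberry, 0.447 on blackcurrant, 0.962 on bilberry and 0.645 on açai). The high-fat mice had a median of 12.26. Blackcurrant-fed mice ran from 11.38 through 11.91 to 12.19, lingonberry-fed mice from 11.98 through 12.18 to 12.56, bilberry-fed mice from 11.98 through 12.23 to 12.84 and açai-fed mice from 12.53 through 12.58 to 12.73. Every mouse on 45% fat was above the highest low-fat mouse at 11.2. The açai mice were the tightest group, with an SD of 0.083 against 0.312 on low-fat (n = 6 each), and the difference in spread was not tested.

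By step, the açai diet gave 3 of 4 tested activation and carnitine genes, 8 of 13 mitochondrial, 6 of 9 peroxisomal and 3 of 6 thioesterase genes above low-fat, plus Bdh1 (0.554) and Aldh3a2 (1.83). The blackcurrant diet gave 1, 5, 2 and 1 in these steps. Its Acot3 mice ran from 4.584 through 5.666 to 6.58 and its Acot4 mice from 7.181 through 7.621 to 8.188, and neither passed against low-fat (0.421 ± 0.491 and 0.254 ± 0.253). On the lingonberry diet Acot3 ran from 6.689 through 7.162 to 8.64 and differed by 2.128 ± 0.491 (adjusted p = 0.00799), and Crot rose by 0.668 ± 0.195 (adjusted p = 0.0467). The Crot call was lost under 9 of 16 settings, among them 5 of the 6 that leave out a chip, with an adjusted p of up to 0.182.

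The mice on berries gave the following values, lowest through median to highest. Slc25a20 ran from 11.06 through 11.23 to 11.52 on lingonberry, 10.93 through 11.2 to 11.47 on blackcurrant, 11.11 through 11.17 to 11.61 on bilberry and 11.13 through 11.32 to 11.47 on açai. Acadm ran from 12.49 through 12.65 to 12.85 on lingonberry, 12.26 through 12.5 to 12.8 on blackcurrant, 12.35 through 12.51 to 12.75 on bilberry and 12.6 through 12.66 to 12.74 on açai. Each berry group overlapped the low-fat mice for Slc25a20 and none did for Acadm. Eci1 ran from 10.98 through 11.16 to 11.34 on lingonberry, 10.9 through 11.22 to 11.33 on blackcurrant, 11.03 through 11.21 to 11.36 on bilberry and 11.28 through 11.46 to 11.54 on açai. Acadl lay from 8.918 through 9.021 to 9.562 on lingonberry, 8.612 through 8.958 to 9.283 on blackcurrant, 8.767 through 8.91 to 9.348 on bilberry and 8.83 through 9.053 to 9.157 on açai. Acads lay from 9.485 through 9.643 to 9.871 on lingonberry, 9.64 through 9.834 to 9.907 on blackcurrant, 9.321 through 9.681 to 9.802 on bilberry and 9.68 through 9.93 to 10.14 on açai. Against low-fat, the açai group was clear of overlap for Eci1, and the lingonberry and açai groups were for Acadl. Dimmer Acadl probes gave 0.408 and 0.317 on lingonberry against low-fat and did not pass (adjusted p = 0.136 and 0.446). Decr1 ran from 7.393 through 7.658 to 7.874 on lingonberry, 7.519 through 7.74 to 8.023 on blackcurrant, 7.513 through 7.647 to 7.717 on bilberry and 7.611 through 7.807 to 7.962 on açai. All its berry groups reached into the wide low-fat range.

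The 4 peroxisomal members that rose on high-fat gave these values on the berry diets. Acaa1a ran from 12.33 through 12.45 to 12.56 on lingonberry, 12.45 through 12.54 to 12.77 on blackcurrant, 12.5 through 12.57 to 12.62 on bilberry and 12.4 through 12.57 to 12.69 on açai. Acaa1b ran from 13.78 through 13.93 to 14.12 on lingonberry, 13.21 through 13.85 to 13.99 on blackcurrant, 13.96 through 14.08 to 14.23 on bilberry and 14.1 through 14.16 to 14.41 on açai. No berry-fed mouse was within the low-fat range for Acaa1a, and only blackcurrant-fed mice were for Acaa1b. Hsd17b4 ran from 12 through 12.19 to 12.59 on lingonberry, 11.84 through 12.11 to 12.33 on blackcurrant, 12.09 through 12.25 to 12.32 on bilberry and 12.26 through 12.34 to 12.57 on açai. Eci2 ran from 10.94 through 11.31 to 11.54 on lingonberry, 11.05 through 11.26 to 11.44 on blackcurrant, 10.88 through 11.01 to 11.11 on bilberry and 10.89 through 11.06 to 11.32 on açai. The bilberry and açai groups were clear of the low-fat mice for Hsd17b4, and the lingonberry and blackcurrant groups for Eci2.

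Among the thioesterases, the berry groups were again wide. Acot1 ran from 10.62 through 11.31 to 11.59 on lingonberry, 10.04 through 10.62 to 11.44 on blackcurrant, 9.974 through 10.71 to 11.52 on bilberry and 10.4 through 11 to 11.15 on açai. Acot3 ran from 4.97 through 7.28 to 7.847 on bilberry and 6.625 through 7.3 to 8.038 on açai. Acot4 ran from 8.02 through 8.247 to 8.85 on lingonberry, 7.596 through 8.293 to 8.849 on bilberry and 8.045 through 8.528 to 8.787 on açai. For Acot1 a single low-fat mouse at 11.23 lay within all 4 berry ranges or above them, and for Acot3 the lingonberry and açai groups were clear of the low-fat mice. Bdh1 ran from 10.73 through 11.01 to 11.19 on lingonberry, 10.48 through 10.86 to 11.04 on blackcurrant, 10.77 through 10.92 to 11.07 on bilberry and 10.81 through 11.23 to 11.31 on açai. Crat lay from 5.834 through 5.991 to 6.278 on lingonberry, 5.404 through 5.843 to 6.335 on blackcurrant and 5.816 through 6.188 to 6.586 on bilberry. Ppara lay from 4.851 through 5.318 to 5.628 on lingonberry, 4.799 through 5.263 to 5.573 on blackcurrant, 5.039 through 5.575 to 5.765 on bilberry and 5.091 through 5.605 to 5.938 on açai. In these 3 genes every berry group overlapped the low-fat mice.

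The 5 diets with 45% fat were also averaged and compared with low-fat. In this comparison 23 members rose and 0 fell (3.03% of all probes rose and 2.28% fell), with a median of 0.398 against -0.003 over all probes. With the chip as a block 26 rose (4.56% of all probes). Of the steps, 3 of 4 activation and carnitine, 9 of 13 mitochondrial, 5 of 9 peroxisomal and 4 of 6 thioesterase genes rose, together with Bdh1 (0.402 ± 0.089) and Aldh3a2 (1.464 ± 0.118). Under all 15 alternative settings tried for this comparison, 13 of the 23 calls were kept. The Crat call was lost under 9 settings (adjusted p up to 0.326) and that of Slc22a5 under 7 (up to 0.301). Calls of Acot8 and Pex11a were lost under 5 and 4. Members whose brightest probe was called neither here nor in another comparison, without the chip block, were Ppara, Pdk4, Cpt2, Hadha, Hadh, Etfa, Etfb, Ehhadh, Nudt7 and Acot2, 10 in all.

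Against the high-fat diet, the berries called none of the 36 members in the limma fit. Over all probes, the share called was 2.25% for lingonberry, 0.134% for blackcurrant, 0.38% for bilberry and 0.0447% for açai. Unadjusted p-values below 0.05 numbered 4, 4, 2 and 4 of 36, and the smallest adjusted p-values were 0.068, 0.315, 0.478 and 0.38. The share of all probes with an unadjusted p below 0.05 is not given. Medians over the members were 0.036, -0.008, 0.008 and 0.12. These 4 comparisons share the same 6 high-fat mice.

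**Figure D5:**
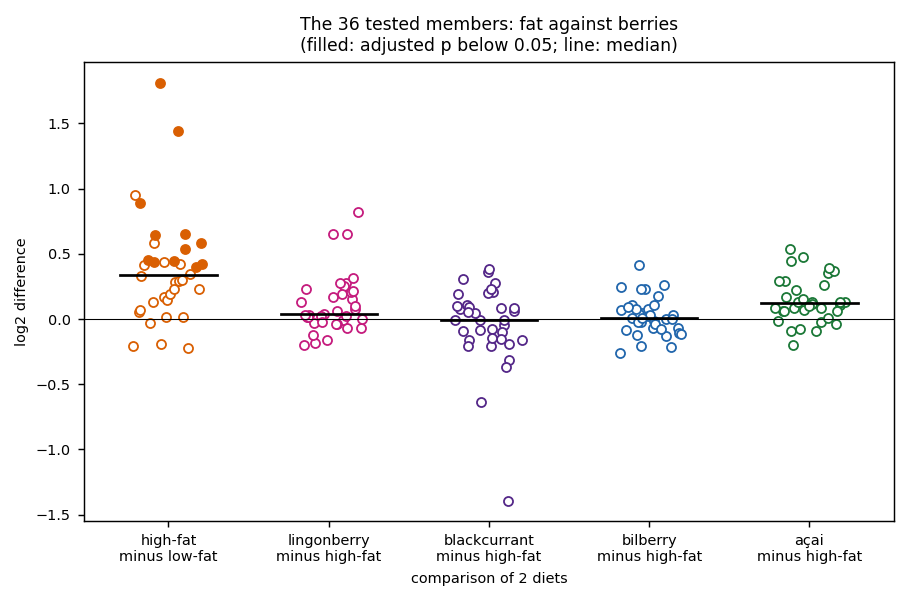
Log2 difference of the 36 tested members (points) for high-fat minus low-fat and for each berry diet minus high-fat (x axis); lines are medians and filled points passed the test. The median is 0.337 in the first column and between -0.008 and 0.12 in the berry columns, where no point is filled.

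The 12 members that rose on high-fat are given here as a description, since the high-fat mice that chose them are also the reference. Their median difference from high-fat was 0.009 on lingonberry, -0.155 on blackcurrant, -0.024 on bilberry and 0.108 on açai. Aldh3a2 differed by 0.004 ± 0.153 on lingonberry, with a 95% interval from -0.305 to 0.313, and by -0.368 ± 0.153 on blackcurrant, with an interval from -0.677 to -0.059 (adjusted p = 0.447). Acot3 on blackcurrant gave -1.392 ± 0.491 (interval from -2.388 to -0.397, adjusted p = 0.315), and Acot4 gave -0.639 ± 0.253 (adjusted p = 0.416). A p that misses the threshold does not show that the berry diets left these genes alike.

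Crot and Ehhadh, singled out after their values were seen, passed on the lingonberry diet when the chip was a block. Crot ran from 4.796 through 5.466 to 5.62 on high-fat and from 5.366 through 5.997 to 6.405 on lingonberry, higher on all 6 chips by 0.394 to 0.944. The difference of 0.653 ± 0.195 had an adjusted p of 0.068, of 0.005 with the block and of 0.0373 without replicate 3. Ehhadh ran from 8.32 through 8.758 to 9.335 and from 9.141 through 9.486 to 9.718, a difference of 0.654 ± 0.203 (adjusted p = 0.0822, 0.0311 with the block and 0.0466 when just the compared diets entered the fit). Both are peroxisomal enzymes, with high-fat minus low-fat differences of 0.015 and -0.206 that were not called. The block raised the share of all probes called from 2.25% to 4%.

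On the açai diet Crat had the largest difference from high-fat among the members, 0.536 ± 0.171 (adjusted p = 0.38). Its 6 açai mice, from 6.115, all lay above the 6 high-fat mice, which ran from 5.265 through 5.823 to 5.93. The share of all probes that separate in this way is not given. Dimmer Crat probes gave 0.049 and 0.165 for açai minus high-fat (adjusted p = 0.995 and 0.981). Nudt7 on blackcurrant gave 0.308 (adjusted p = 0.403) in its brightest probe, and a dimmer probe rose by 0.719 (adjusted p = 0.0246).

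The açai diet was also compared with the average of the other 3 berry diets. Aldh3a2 rose, by 0.481 ± 0.125 (adjusted p = 0.0243), higher on all 6 chips, and it was the single call among 36 members (2.55% of all probes were called). A second probe of it rose by 0.541 (adjusted p = 0.0136). With the chip as a block there were 4 calls (4.22% of all probes): Eci1 (0.28, adjusted p = 0.0154) joined Aldh3a2 in rising, while Crot (-0.513, adjusted p = 0.00519) and Nudt7 (-0.263, adjusted p = 0.0438) fell. Leaving out replicate 2, 4, 5 or 6 ended the Aldh3a2 call, with an adjusted p of up to 0.169.

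Genes of the same pathways outside the member list were counted from separate lists. On high-fat against low-fat, where 1.97% of all probes rose and 1.35% fell, 4 of 19 further mitochondrial genes rose and 0 fell, among them Hsd17b10, a dehydrogenase of branched-chain breakdown (0.782 ± 0.131). Of 27 further peroxisomal genes 2 rose, Ech1, a dienoyl-CoA isomerase (0.682 ± 0.089), and the biogenesis factor Pex3 (0.457 ± 0.093). Acot6 and Acot9 rose among 8 further thioesterases, by 0.568 and 0.508. Acat1, the mitochondrial acetoacetyl-CoA thiolase, rose by 0.745 ± 0.15 and was 1 of 2 tested further ketone body genes.

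Other known PPARα targets were mixed, with 5 of 32 up and 2 down. Cyp4a14, a fatty acid ω-hydroxylase, rose by 3.273 ± 0.792, Cyp4a31 by 1.727 ± 0.391, the lipid droplet proteins Plin4 and Cidea by 1.824 ± 0.287 and 1.091 ± 0.321, and retinol saturase, Retsat, by 0.704. Cyp4a12b fell by 1.141 and the acyl-CoA synthetase Acsl5 by 0.441. Among 19 partners and regulators of the receptor, Pparg, its adipogenic relative, rose by 1.65 ± 0.222. Acacb, the acetyl-CoA carboxylase whose product malonyl-CoA restrains carnitine palmitoyltransferase, fell by 1.719 ± 0.208.

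Against high-fat, Plin4 fell on the lingonberry diet by 1.154 and on the bilberry diet by 1.397, and Cidea rose on açai by 2.388 (adjusted p = 6.73e-05). Lingonberry also gave falls of Hsd17b10 by 0.787, of the thioesterase Acot11 by 1.021, of the alanine transaminase Gpt2 by 0.627, of the propionyl-CoA carboxylase subunit Pcca by 0.363 and of the peroxisomal membrane protein Pxmp2 by 0.647. Txnip (0.785) and Hacl1, the lyase of peroxisomal α-oxidation (0.659), rose on that diet, and Hacl1 rose by 0.689 on bilberry. No gene of these lists was called on blackcurrant against high-fat, where 0.134% of all probes were called.

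Leaving out 1 chip at a time changed the number of members that rose on high-fat against low-fat from 12 to between 5 and 12: it was 7 without replicate 2, 6 without replicate 4 and 5 without replicate 5. Over all probes, the calls in either direction also dropped, from 593 to 285, 331 and 209 without replicates 2, 4 and 5. Aldh3a2, Eci1 and Acadm were called under all 16 alternative settings tried, whereas Acot3 and Acot4 were called under 7 of 16.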

How the data were processed

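Per the labels' protocols, RNA came from AllPrep columns and was amplified and biotin-labelled with Illumina's TotalPrep chemistry. The authors deposited a raw intensity (linear scale, not background subtracted) and a detection p-value for each of 45281 probes and 36 arrays, along with 974 entries without a detection p-value that were taken as controls. The authors also deposited log2 values of the same probes; their normalization is not given in the sources used. Array medians of that table were 4.402 to 4.403, and it differed by at most 0.0501 from the values computed here, so its scale is log2, no gene was centred and a direction needs no turning.

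Here the raw intensities were processed with neqc of limma 3.58.1 (normexp background from the detection p-values, offset 16, quantile, log2; R 4.3.3). Probes detected (p below 0.05) on at least 6 arrays were fitted with limma's lmFit and eBayes over all 36 arrays, with a mean per diet, two-sided, and p-values were adjusted by Benjamini-Hochberg over 17907 probes. Array number limits precision. A gene with several tested probes (21 members) is described by the brightest one, and other probes are given for some members. Probes were named by the platform's annotation after an update of symbols from RefSeq (GRCm38.p6): 34885 probes had 1 symbol, 18 had several and 10378 were unlisted. Lowest, median and highest values are given for the 16 called members with the smallest F-test p and for Ppara, and others were singled out after their values were seen. The members and all lists were chosen with earlier results of these data known.

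Replicate numbers are chips by the labels, so they pair mice across diets. Median correlations of residuals within a chip were 0.0488 to 0.357, against -0.0294 between chips. The chip as a block was an alternative, as were other background corrections, filters, variance models, the deposited table, the acinar covariate and leaving out arrays. Correlations used Python 3.11.15 with permutations within diets. The fit was also run on simulated data. Those data had no correlation within a chip, and the outcome is not given here.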

Additional observations from a re-analysis of the deposited data

Results flagged for a closer look

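In 6 of 102 groups of 6 mice, a mouse stood apart from the other mice of its diet by more than Dixon's 95% limit, and chance gives about 1 in 20. On the high-fat diet, replicate 1 was low in Acaa1b (13.36, nearest other mouse 13.88) and in Crat (5.265, nearest 5.704). On the low-fat diet, replicate 4 was low in Acaa1a (11.61, nearest 12.08). On the lingonberry diet, replicate 1 was high in Hsd17b4 (12.59, nearest 12.21), and replicate 3 was high in Acot4 (8.85, nearest 8.321) and in Acadl (9.562, nearest 9.111).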

How the results depend on the processing

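No result reversed under any alternative. The counts of member calls that moved by more than 1.5 times did so as follows. When just the compared diets entered the fit, so fewer samples for the spread, 4 members rose on high-fat against low-fat (12 over all arrays), 9 on lingonberry (17), 2 on blackcurrant (10) and 6 on bilberry (10) against low-fat, while lingonberry against high-fat gave 1 (0) and açai against the other berries 2 (1). The share of all probes called in these fits is not given. With the chip as a replicate block, lingonberry against high-fat gave 2 calls and açai against the other berries 4, and no other call count moved that far. With all 45281 probes tested, blackcurrant against low-fat gave 6 and açai against the other berries 0. The cause was not tested. That setting called 250 of all probes in the first comparison (413 of 17907 in the main fit) and 338 in the second (457). The relation of Ppara to the members gave 2 calls, and 0 with chip means removed. Without 1 chip at a time, calls were 10 to 20 for the F test (17), 5 to 12 for high-fat (12), 10 to 18 for lingonberry (17), 5 to 12 for blackcurrant (10), 5 to 14 for bilberry (10), 17 to 22 for açai (22) and 15 to 24 for the mean of the 5 diets (23), each against low-fat. They were 0 to 1 for lingonberry and 0 to 0 for blackcurrant, bilberry and açai against high-fat, and 0 to 2 for açai against the other berries. Counts of the F test were lowest without replicate 1 or 2 (10 each) and 11 without replicate 5, those of lingonberry against low-fat were 10 without replicate 1 and 11 without replicate 2, and that of the mean of 5 diets was 15 without replicate 4. Blackcurrant gave 6 without replicate 1 and 5 without replicate 2, 4 or 5, and bilberry 6 without replicate 1 and 5 without replicate 2 or 4. Over all probes, calls in either direction against low-fat without 1 chip at a time were 209 to 603 for high-fat (593 with every chip). They were 359 to 485 for lingonberry (587), 172 to 424 for blackcurrant (413) and 142 to 303 for bilberry (288). For açai they were 707 to 1049 (1158), and for the mean of the 5 diets 587 to 886 (950). Such a range is not given for the F test. The deposited table kept the side of the threshold for 122 of 123 single-gene results. Across settings, the median difference of all probes stayed between -0.015 and 0.008. Hadha and Acot2 were read near background, which limits what these probes can show.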
